A study of Mus musculus with 24 samples.

Results

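The genes described are 10 members of the mouse BCL2 family, taken by name from the 56941 gene IDs of a count table: Bcl2, Bcl2l1, Mcl1, Bcl2a1b, Bcl2a1d, Bax, Bak1, Bid, Bcl2l11 and Pmaip1. All 10 were among the 14757 genes that passed the filter on low counts and were tested. The RNA came from bone marrow-derived macrophages, cells grown out of mouse marrow, that were either exposed for 6 hours to 100 ng/ml lipopolysaccharide (LPS, the bacterial ligand of the receptor TLR4) or left untreated. There were 6 groups of 4 libraries, 24 in all: knockout of Hdac9 (KO), deletion of a cis-regulatory element (dCIS) and wild type (WT), each after LPS and untreated. Hdac9 encodes a class IIa histone deacetylase, and the title of the series says that the element controls its expression. The labels give no strain, sex or age. They also do not tell whether the 4 libraries in a group were separate cultures or mice, and the p-values therefore reflect spread among libraries that may be technical only.

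The family decides whether the outer membrane of the mitochondrion stays intact. Bax and Bak1 encode the executioners that form pores in it and release cytochrome c, which starts the caspase cascade. Bcl2, Bcl2l1 (BCL-XL), Mcl1 and the Bcl2a1 genes (A1) encode survival proteins that hold the executioners and their activators in check. Bid, Bcl2l11 (BIM) and Pmaip1 (NOXA) encode BH3-only proteins, which bind the survival proteins or trigger the executioners. Much of this control acts on protein stability and cleavage, which RNA levels do not show.

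Levels are read counts divided by library size (CPM), with library sizes scaled by the trimmed mean of M-values (TMM), and changes are log2 fold changes with their standard error (SE). A gene was called when its adjusted p was under 0.05, by the quasi-likelihood test of edgeR with Benjamini-Hochberg adjustment over all 14757 genes, and all adjusted p-values are from that test unless another tool is named. Total counts per library were 14636058 to 19181707. Libraries 3 and 4 of dCIS after LPS held 17628 and 15997 genes with a count, against 20458 to 22736 in the other 22. Hdac9 averaged 0.302 ± 0.155 CPM in KO, 14.6 ± 5.26 in dCIS and 12.3 ± 2.83 in WT after LPS, and 1.04 ± 0.218, 15.6 ± 2.23 and 11.2 ± 1.46 CPM in the untreated groups in that order (SD, n = 4 each). It was lower in KO than in WT at both treatments (adjusted p = 1.37e-10 after LPS and 1.38e-09 untreated), while the log2 difference of dCIS from WT, 0.25 after LPS and 0.47 untreated, did not pass the test (adjusted p = 0.647 and 1). The summed level of 8 macrophage markers was 15118.7 to 25482.9 CPM, and the neutrophil marker Ly6g and the basophil marker Mcpt8 had 0 counts in every library. Summed lymphocyte markers reached at most 0.699 CPM, neutrophil markers 4.67, dendritic cell markers 4.85, and mast cell and basophil markers 1.78. Summed fibroblast and endothelial markers were 40.9 to 68.6 CPM after LPS and 2.88 to 5.79 CPM untreated, mostly from Kdr; their part in the changes below was not tested. In bulk RNA, fewer cells of a type and less RNA per cell cannot be told apart.

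The scaling bears on every LPS comparison. TMM factors were 0.695 to 0.826 in LPS libraries and 1.29 to 1.36 in untreated ones. With total counts and no such factor, a setting chosen after seeing the data, the median log2 change of all genes was -0.80 in KO, -0.81 in dCIS and -0.80 in WT, instead of 0.02, -0.05 and 0.00. The genes called then split into 2044 higher and 9494 lower in KO, 2233 and 9448 in dCIS, and 2067 and 9525 in WT, against 4558 and 4527, 4626 and 4921, and 4484 and 4571 with TMM. Each direction below is therefore relative to most genes, and every member whose direction or call depends on this choice is named.

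Promoters of the Bcl2a1 genes are shown because these genes had the largest LPS changes of the 10 members. RefSeq promoters, 250 bases before to 50 after the start of the gene, were found for 9 of the 10 members (build GRCm38.p6, which is not the build of the counts). Bcl2a1b lies on the plus strand (chr9:89199023-89199322), Bcl2a1d on the minus strand (chr9:88731801-88732100), and the copy Bcl2a1a on the plus strand (chr9:88956670-88956969). Each sequence is written 5′ to 3′, with matches to the AP-1 motif, taken here as TGANTCA, and the ETS motif of PU.1, GAGGAAGT, in capitals. N allows any base, so the AP-1 pattern is a loose one, and the AP-1 matches marked here all read TGAATCA.
Bcl2a1b: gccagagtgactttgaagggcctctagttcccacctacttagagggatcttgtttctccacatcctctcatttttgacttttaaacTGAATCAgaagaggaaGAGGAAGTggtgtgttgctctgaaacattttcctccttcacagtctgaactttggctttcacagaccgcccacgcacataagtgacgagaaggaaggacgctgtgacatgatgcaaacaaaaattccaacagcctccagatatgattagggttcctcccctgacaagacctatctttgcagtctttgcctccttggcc
Bcl2a1d: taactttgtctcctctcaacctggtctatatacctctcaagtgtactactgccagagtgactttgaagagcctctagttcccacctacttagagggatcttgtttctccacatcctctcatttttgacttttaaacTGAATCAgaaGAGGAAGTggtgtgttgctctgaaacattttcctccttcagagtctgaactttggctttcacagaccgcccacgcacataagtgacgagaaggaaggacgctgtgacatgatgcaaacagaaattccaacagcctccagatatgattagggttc
Bcl2a1a: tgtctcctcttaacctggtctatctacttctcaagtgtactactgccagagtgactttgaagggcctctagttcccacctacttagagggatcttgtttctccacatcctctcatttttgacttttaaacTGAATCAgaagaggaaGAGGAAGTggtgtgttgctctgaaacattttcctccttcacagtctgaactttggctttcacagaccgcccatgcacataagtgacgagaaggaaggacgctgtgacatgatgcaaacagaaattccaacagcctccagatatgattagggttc
In Bcl2a1b the AP-1 match began at -164 and the ETS match at -148 from the start site, in Bcl2a1d at -114 and -104, and in Bcl2a1a at -120 and -104. The promoters of Bcl2a1b and Bcl2a1d were identical at 98.8% of aligned bases. On both strands, 7.81% of 32851 RefSeq promoters held the AP-1 motif and 3.20% the ETS motif. The AP-1 pattern is the same on both strands, so each of its matches was read on both. The promoter of the copy Bcl2a1c, not printed here, held an ETS match beginning at -214 and no AP-1 match, and Bcl2a1c also rose with LPS, with log2 changes in KO, dCIS and WT of 4.02, 4.61 and 3.90. An ETS match was also present in the promoter of Bak1, an NF-kB match (4.51% of promoters) in 1 promoter of Bcl2l1, and a FOXO match, TGTTTAC (3.65% of promoters), in 1 promoter of Bcl2l11. No promoter of a Bcl2a1 copy held an NF-kB match in these windows. The IRF motif GAAANNGAAA (3.44% of promoters) had no match in these windows. A match describes these letters only and says nothing of binding.

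After LPS, 8 of the 10 members were called in KO, 9 in dCIS and 9 in WT, when 61.6%, 64.7% and 61.4% of all tested genes were called. In KO 7 were higher and 1 lower (30.9% and 30.7% of all genes). In dCIS 6 were higher and 3 lower (31.3% and 33.3%), and in WT also 6 and 3 (30.4% and 31.0%). Called changes of at least 2-fold numbered 5 in KO, 5 in dCIS and 4 in WT (34.5%, 36.0% and 33.9% of all genes). The LPS and untreated libraries did not overlap for 8 members in KO, 8 in dCIS and 10 in WT (59.0%, 51.4% and 61.8% of all genes). The median log2 change of the members was 0.80 in KO, 0.72 in dCIS and 0.75 in WT. With total counts 2 members were higher and 4 lower in KO, 4 and 4 in dCIS, and 3 and 4 in WT, and the medians were -0.026, -0.051 and -0.056.

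**Figure D1:**
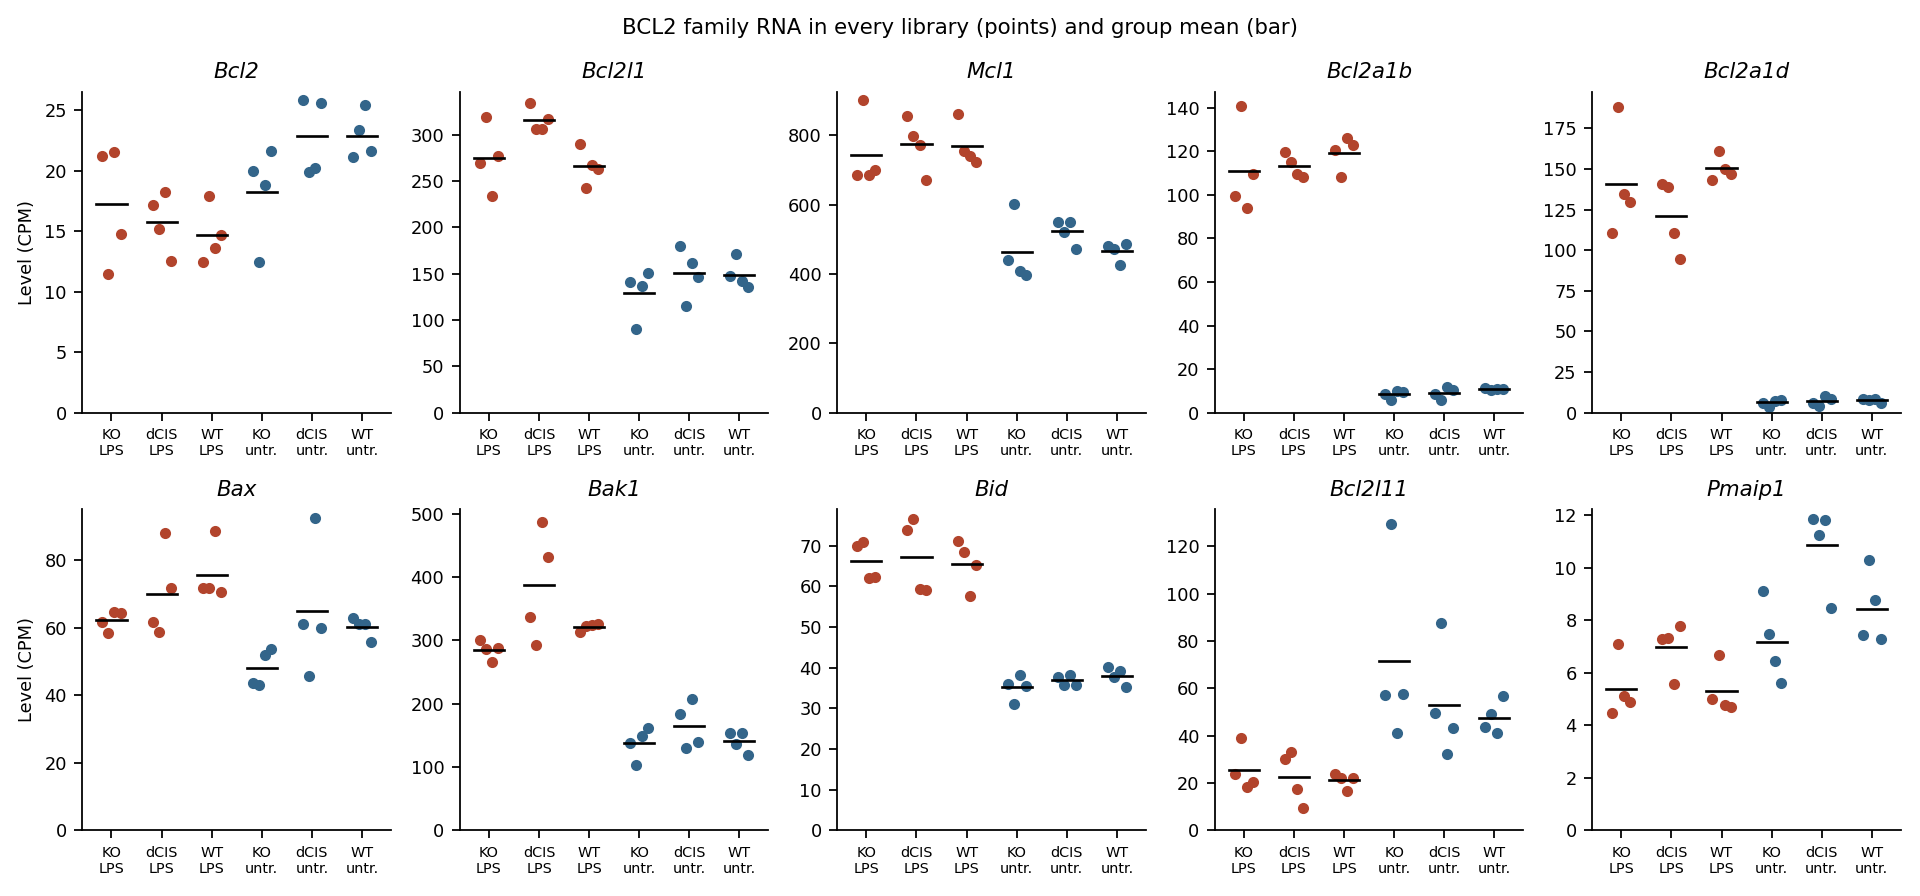
Level of each member in CPM (y axis, linear, from 0) in all 24 libraries (points) by group (x axis), with LPS groups left and untreated groups right in each panel; bars are means of 4 libraries. Bcl2a1b and Bcl2a1d lie near the axis untreated and between 94.2 and 188 CPM after LPS.

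The Bcl2a1 genes changed most. A1 is a short-lived survival protein of blood cells whose genes are known targets of NF-kB, the factor that TLR4 activates. Bcl2a1b had 99.4, 141, 94.2 and 109.8 CPM in KO after LPS, against 8.52, 5.71, 9.70 and 9.53 untreated. In dCIS its level was 119.8, 115, 109.6 and 108 CPM after LPS, against 8.65, 5.90, 11.8 and 10.6 untreated, and in WT 121, 108, 126 and 123 CPM, against 11.4, 10.3, 11.0 and 10.8. Every LPS library thus lay far above every untreated one. The log2 change was 3.73 ± 0.17 in KO, 3.62 ± 0.17 in dCIS and 3.46 ± 0.17 in WT (SE; adjusted p = 2.71e-16, 4.43e-16 and 8.85e-16), or 13.3-, 12.3- and 11.0-fold.

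Bcl2a1d had 111, 188, 135 and 129.9 CPM in KO after LPS, against 6.20, 3.30, 7.42 and 7.98 untreated. For dCIS the values were 141, 139, 111 and 94.5 CPM after LPS, against 6.21, 3.98, 10.5 and 8.25 untreated, and for WT 143, 161, 150.0 and 147 CPM, against 8.54, 7.82, 8.15 and 6.16. Its log2 change was 4.51 ± 0.25 in KO, 4.07 ± 0.24 in dCIS and 4.29 ± 0.25 in WT (SE; adjusted p = 1.27e-14, 7.09e-14 and 2.50e-14). Only 1.85%, 2.47% and 2.13% of tested genes had a larger log2 change than Bcl2a1d in KO, dCIS and WT, and 2.87%, 3.20% and 3.48% a larger one than Bcl2a1b. Both genes stayed higher and called with total counts, with log2 changes of 2.91, 2.86 and 2.65 for Bcl2a1b and 3.68, 3.30 and 3.48 for Bcl2a1d in KO, dCIS and WT.

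The Bcl2a1 genes are near-identical copies, so the split of reads between them is uncertain. Of all stretches of 60 bases, the read length, 51.7% in the Bcl2a1b transcript and 74.3% in that of Bcl2a1d also occurred in another copy, and their transcripts were identical at 99.1% of aligned bases. The reads were paired, so the share of read pairs that fit several copies could be lower than these shares of single stretches. The copies Bcl2a1a and Bcl2a1c rose too, Bcl2a1a to 48.0 ± 10.9 CPM in KO, 40.7 ± 3.64 in dCIS and 50.2 ± 5.06 in WT after LPS, against 3.18 ± 1.60, 3.32 ± 1.47 and 3.73 ± 0.696 untreated (SD, n = 4 each). Summed over the 4 copies, the log2 change was 4.08 in KO, 3.83 in dCIS and 3.85 in WT (adjusted p = 9.23e-15, 2.72e-14 and 2.33e-14). This sum does not depend on how counted reads were split among the copies, but it would lack any shared reads that the counting dropped.

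Among the other survival genes, Bcl2l1 and Mcl1 were higher after LPS relative to most genes, Mcl1 with the opposite sign by total counts, and Bcl2 was lower in dCIS and WT. Bcl2l1, whose long product BCL-XL protects long-lived cells, had 269.6, 319.5, 233 and 278 CPM in KO after LPS, against 141, 90.4, 136 and 150.4 untreated. It had 334, 306, 306 and 317 CPM in dCIS, against 180.0, 116, 161 and 147, and 290.1, 243, 268 and 263 CPM in WT, against 147, 172, 142 and 135. No LPS library overlapped an untreated one, and the log2 change was 1.09 ± 0.14, 1.07 ± 0.14 and 0.84 ± 0.14 in KO, dCIS and WT (SE; adjusted p = 1.13e-07, 1.53e-07 and 6.42e-06). With total counts it was 0.26 in KO and 0.02 in WT, neither called, and 0.31 in dCIS, which was called.

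Mcl1, which encodes a survival protein with a rapid turnover, had the highest CPM of the family, with 685, 900.2, 686 and 700.2 CPM in KO after LPS, against 441, 603, 408 and 398 untreated. In dCIS it reached 856, 798, 773 and 669 CPM, against 549, 522, 549 and 473, and in WT 861, 755, 739 and 723 CPM, against 481, 471, 426 and 486. The groups did not overlap, and the log2 change was 0.68 ± 0.12, 0.56 ± 0.12 and 0.72 ± 0.12 in KO, dCIS and WT (SE; adjusted p = 1.89e-05, 0.000194 and 8.88e-06). With total counts the sign turned to -0.14, -0.20 and -0.09, none of them called.

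Bcl2, the founding survival gene of the family, was among the members with few reads, from 128 to 578 per library. It had 21.2, 11.5, 21.6 and 14.8 CPM in KO after LPS, against 20.0, 12.4, 18.8 and 21.6 untreated, and these ranges overlapped. It had 17.2, 15.2, 18.2 and 12.5 CPM in dCIS, against 25.8, 19.9, 20.2 and 25.6, and 12.4, 17.9, 13.6 and 14.7 CPM in WT, against 21.1, 23.3, 25.4 and 21.6, with no overlap in either. The log2 change was -0.53 ± 0.18 in dCIS (SE; adjusted p = 0.0115), -0.64 ± 0.18 in WT (0.00337) and -0.07 ± 0.18 in KO (0.742). The KO response minus the WT response was 0.56 ± 0.26 (adjusted p = 1.00, unadjusted p = 0.0364), so the difference between KO and WT did not pass the test. Without dCIS LPS libraries 3 and 4, the dCIS change was -0.50 and was no longer called (adjusted p = 0.0575). With total counts Bcl2 was lower and called in KO as well (-0.89, adjusted p = 0.000125).

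**Figure D2:**
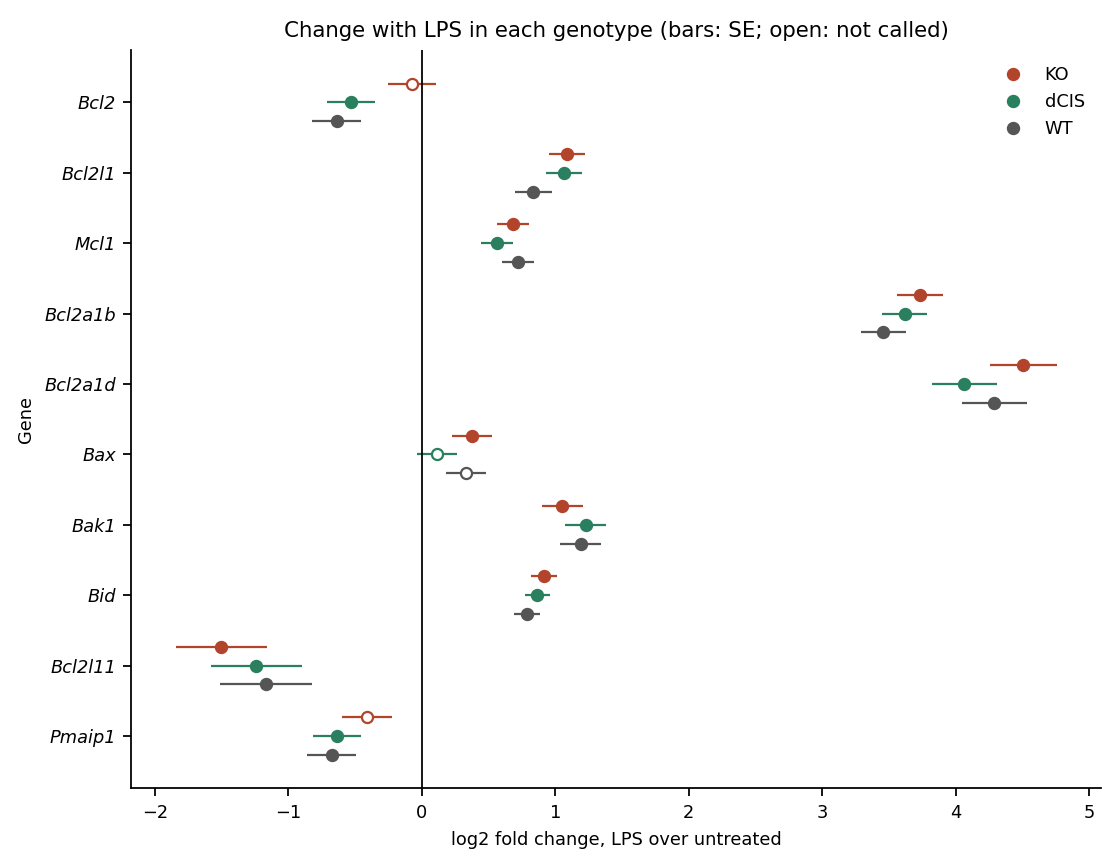
Log2 fold change of each member, LPS over untreated (x axis), in KO, dCIS and WT from top to bottom within each gene (y axis); bars are SE, and open points did not reach an adjusted p of 0.05. Bcl2a1b and Bcl2a1d lie at 3.46 to 4.51, while Bcl2, Bcl2l11 and Pmaip1 lie below 0.

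Of the executioners, Bak1 rose in all 3 genotypes. Bax was called higher in KO alone in the main fit, but its call depended on the setting in both KO and WT. By total counts Bax was lower in all 3. Bak1 had 301, 287, 267 and 288 CPM in KO after LPS, against 138, 102, 148 and 162 untreated. It had 337, 292, 488 and 433 CPM in dCIS, against 184, 130.1, 208 and 139, and 313, 324, 325 and 325 CPM in WT, against 154, 137, 154 and 119. All LPS libraries were above all untreated ones, and the highest values, 488 and 433 CPM, were those of dCIS libraries 3 and 4 with fewer genes detected. The log2 change was 1.05 ± 0.15, 1.23 ± 0.15 and 1.19 ± 0.15 in KO, dCIS and WT (SE; adjusted p = 1.34e-06, 1.13e-07 and 1.93e-07). With total counts it was 0.49 in dCIS and 0.38 in WT, both called, and 0.23 in KO, not called.

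Bax had 61.7, 58.5, 64.8 and 64.4 CPM in KO after LPS, against 43.8, 43.0, 52.1 and 53.8 untreated, and the groups did not overlap. It had 61.7, 58.8, 88.1 and 71.7 CPM in dCIS, against 61.0, 45.7, 92.7 and 60.0, and 71.8, 71.7, 88.8 and 70.5 CPM in WT, against 63.1, 61.2, 61.2 and 55.7. In dCIS the treatments overlapped, and in WT they did not. The log2 change was called in KO (0.37 ± 0.15 SE, adjusted p = 0.0345) and not in dCIS (0.11 ± 0.15, 0.528) or WT (0.33 ± 0.15, 0.0605). In KO the call was lost with DESeq2 (0.31, adjusted p = 0.0706), RLE size factors (0.31, 0.0684) and no filter (0.22, 0.226). It was also lost without LPS library 1, 3 or 4 or untreated library 1 or 2 (adjusted p = 0.0547, 0.0729, 0.0715, 0.0941 and 0.0973), and the change was 0.19 (0.279) without untreated libraries 2 of KO and dCIS. The WT change was called with the replicate number as a block within each genotype (0.32, adjusted p = 0.00196) or over all groups (0.32, 0.0192). With the compared groups alone it was called too (0.29, adjusted p = 0.00733). The KO response of Bax minus the WT response was 0.045 ± 0.21 (SE) and was not called. With total counts Bax turned to called falls of -0.45, -0.63 and -0.48 in KO, dCIS and WT, so its direction depends on the scaling.

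The 3 BH3-only genes split: Bid rose relative to most genes, though not by total counts, while Bcl2l11 fell in every genotype and Pmaip1 in dCIS and WT. Bid, whose protein links death receptors to the mitochondrion once caspase-8 has cut it, had 69.9, 70.9, 62.0 and 62.2 CPM in KO after LPS, against 36.0, 31.1, 38.1 and 35.5 untreated. It had 73.7, 76.6, 59.2 and 59.1 CPM in dCIS, against 37.7, 35.8, 38.3 and 35.7, and 71.1, 68.3, 57.6 and 65.2 CPM in WT, against 40.1, 37.6, 39.1 and 35.3. The groups were well apart, and the log2 change was 0.91 ± 0.10, 0.87 ± 0.10 and 0.79 ± 0.10 (SE; adjusted p = 5.92e-09, 1.47e-08 and 7.82e-08). With total counts it was 0.09, 0.10 and -0.02 in KO, dCIS and WT, none called.

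Bcl2l11 encodes BIM, an activator of BAX and BAK that is known to set the lifespan of many blood cells. It had 23.9, 38.9, 18.1 and 20.2 CPM in KO after LPS, against 57.0, 129.7, 41.1 and 57.7 untreated. It had 30.0, 33.2, 17.2 and 9.57 CPM in dCIS, against 49.5, 87.6, 32.1 and 43.2, and 23.9, 22.2, 16.6 and 22.2 CPM in WT, against 43.8, 49.1, 41.1 and 56.6. The treatments overlapped in dCIS and in neither of the others. The log2 change was -1.50 ± 0.34 in KO, -1.24 ± 0.34 in dCIS and -1.17 ± 0.34 in WT (SE; adjusted p = 0.000455, 0.00267 and 0.00466). Without dCIS LPS libraries 3 and 4 the dCIS change was -0.75 and not called (adjusted p = 0.0913).

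Untreated libraries 2 of KO and dCIS stood out in Bcl2l11, with 129.7 and 87.6 CPM. The same libraries had the lowest Bcl2, Bcl2l1, Bcl2a1b, Bcl2a1d, Bax and Bak1 of their groups. Without both, chosen after seeing the data, the log2 change of Bcl2l11 was -1.18 in KO and -0.98 in dCIS, both called (adjusted p = 0.00035 and 0.00193).

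Pmaip1 encodes NOXA, which binds MCL1 and A1 in particular, and had few reads, from 48 to 252 per library. It had 4.45, 7.10, 5.10 and 4.86 CPM in KO after LPS, against 9.10, 7.48, 6.43 and 5.59 untreated. It had 7.30, 7.32, 5.57 and 7.77 CPM in dCIS, against 11.8, 11.2, 11.8 and 8.47, and 4.99, 6.68, 4.78 and 4.69 CPM in WT, against 7.43, 10.3, 8.77 and 7.27. Only in KO did the ranges overlap. The log2 change was called in dCIS (-0.63 ± 0.18 SE, adjusted p = 0.0031) and WT (-0.67 ± 0.18, 0.00247) and not in KO (-0.41 ± 0.19, 0.0573). The KO call of Pmaip1 depended on the setting: 8 of 18 alternatives left it uncalled, with adjusted p over all of them from 1.04e-06 to 0.2196. It was called lower with total counts (-1.24, adjusted p = 1.04e-06), RLE size factors (-0.47, 0.0293), DESeq2 (-0.48, 0.0235), no filter (-0.56, 0.0186) and the compared groups alone (-0.50, 0.0422). It was also called when the fit held a replicate block, shared by the groups (-0.41, 0.0345) or nested in genotype (-0.40, 0.0484), and without KO LPS library 2 (-0.57, 0.0139), untreated KO library 4 (-0.52, 0.0238) or untreated libraries 2 of KO and dCIS (-0.52, 0.0281). The difference of the KO response from that of WT was 0.26 ± 0.26 (adjusted p = 1.00).

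Levels of different genes were compared as CPM per kb of exon, with exon lengths from GENCODE M21, a release for another build than that of the counts. The length of a gene was that of all its annotated exons joined, over all isoforms. It ran from 817 bases for Bcl2a1b to 9157 for Bcl2, and the ranks and shares below depend on this choice of length. On this scale Mcl1 ranked first in all 6 groups and Bcl2 last, though by CPM alone Bcl2 was above Pmaip1 in each group. Untreated, Bak1 ranked second in each genotype. After LPS the second place was held by Bcl2a1d in KO and WT, with 163 ± 38.5 and 174 ± 8.72 CPM per kb, and by Bak1 in dCIS, with 161 ± 36.9, where Bcl2a1d had 140.5 ± 26.1 (SD, n = 4 each), and these last 2 lay within each other's spread. In dCIS, Bak1 was above Bcl2a1d per kb only in LPS libraries 3 and 4, those with fewer genes detected. Bak1 had 488 and 433 CPM there, and Bcl2a1d 111 and 94.5. In libraries 1 and 2 Bcl2a1d was above Bak1 per kb. How the authors' counting treated reads shared by the Bcl2a1 copies is unknown, and if it dropped them the levels, ranks and shares of Bcl2a1b and Bcl2a1d would be understated.

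Shares of the summed CPM per kb of the 10 members do not depend on the scaling of libraries. Bcl2a1b and Bcl2a1d together held 39.1 ± 2.98% in KO, 34.6 ± 3.40% in dCIS and 39.6 ± 1.22% in WT after LPS, against 6.01 ± 1.71%, 5.76 ± 1.56% and 7.15 ± 0.374% untreated (SD, n = 4 each). In dCIS after LPS this share ran from 31.4 to 38.2%, and was lower in libraries 3 and 4 than in libraries 1 and 2. The 3 BH3-only genes held 3.14 ± 0.229%, 3.01 ± 0.490% and 2.85 ± 0.269% after LPS, against 7.31 ± 1.21%, 6.29 ± 1.47% and 6.37 ± 0.232%. Bax and Bak1 together held 21.1 ± 2.68%, 25.5 ± 5.64% and 22.4 ± 0.958% after LPS, against 30.1 ± 5.25%, 32.1 ± 4.01% and 31.2 ± 2.36%. All 5 survival genes held 75.8 ± 2.83%, 71.4 ± 5.16% and 74.7 ± 0.788% after LPS, against 62.5 ± 4.06%, 61.6 ± 2.73% and 62.4 ± 2.24%. Bcl2, Bcl2l1 and Mcl1 alone held 36.7 ± 0.477%, 36.8 ± 1.82% and 35.1 ± 1.99% after LPS, against 56.5 ± 5.75%, 55.9 ± 3.76% and 55.3 ± 2.59%, so the larger survival share after LPS lay in the Bcl2a1 genes.

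**Figure D3:**
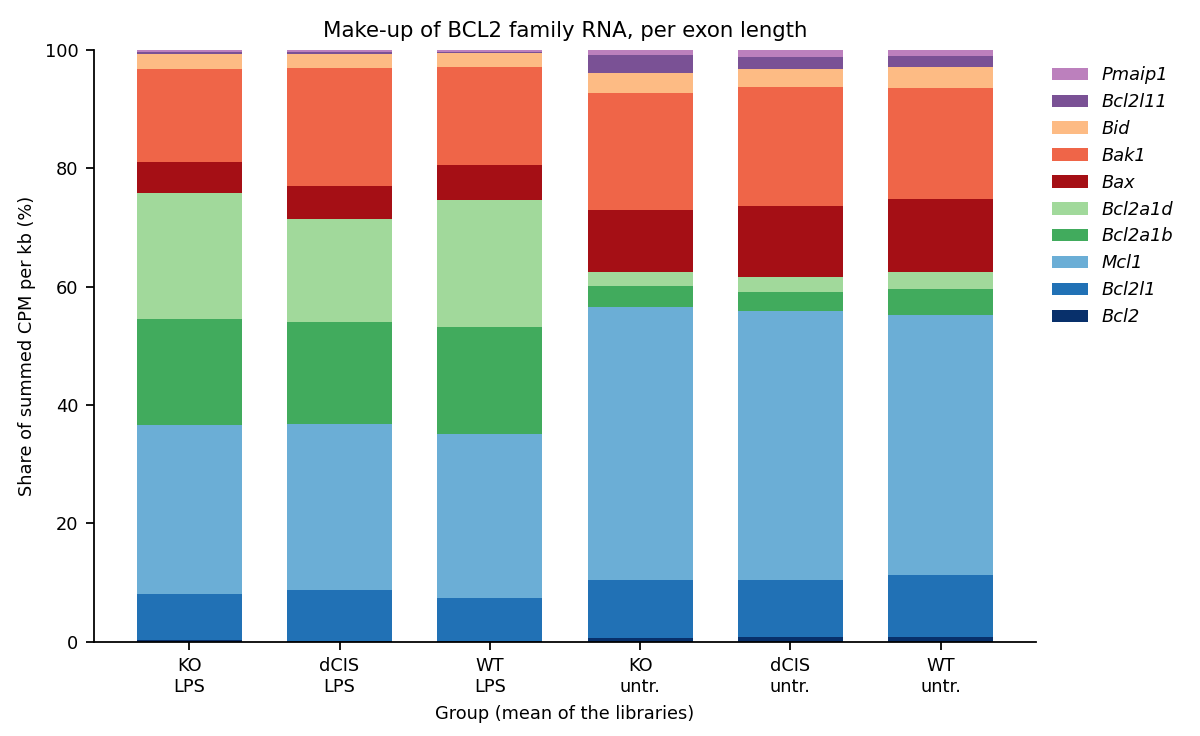
Share of each member in the summed CPM per kb of the 10 members (y axis, %), mean of 4 libraries per group (x axis), LPS groups left and untreated groups right; from the bottom, segments are the 5 survival genes (blue and green), Bax and Bak1 (red), and the 3 BH3-only genes. The green Bcl2a1 part is 34.6 to 39.6% after LPS and 5.76 to 7.15% untreated.

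Between genotypes at the same treatment, no member was called for KO over WT or for dCIS over WT. For KO over WT, 2.74% of all genes were called after LPS and 7.31% untreated, and for dCIS over WT 0.258% and 0.0542%. At an unadjusted p under 0.05 there were 0 members after LPS and 2 untreated for KO over WT (21.2% and 25.2% of genes), and 1 and 1 for dCIS over WT (13.1% and 3.61%). DESeq2 also called 0 members in each of these 4 comparisons. The members with an unadjusted p under 0.05 were Bcl2a1b and Bax in KO, untreated, and Pmaip1 in dCIS at both treatments.

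Bcl2a1b averaged 8.36 ± 1.85 CPM in KO and 10.9 ± 0.452 in WT untreated (SD, n = 4 each), and its log2 difference was -0.38 ± 0.17 (SE; adjusted p = 0.151). Bax averaged 62.3 ± 2.93 CPM in KO and 75.7 ± 8.78 in WT after LPS, a log2 difference of -0.28 ± 0.15 (adjusted p = 0.294), and 48.2 ± 5.54 and 60.3 ± 3.20 CPM untreated, a difference of -0.32 ± 0.15 (0.175). KO and WT libraries of Bax did not overlap at either treatment, nor did those of Bak1 after LPS or Bcl2a1b untreated, which makes 2 members at each, when 18.3% of all genes after LPS and 21.5% untreated did not overlap. Fitted on the compared groups alone, Bax was called lower in KO at both treatments (adjusted p = 0.0438 after LPS and 0.0295 untreated). Pmaip1 averaged 6.99 ± 0.972 CPM in dCIS and 5.28 ± 0.938 in WT after LPS, a log2 difference of 0.40 ± 0.19 (adjusted p = 0.368), and 10.8 ± 1.60 and 8.44 ± 1.41 CPM untreated, 0.36 ± 0.17 (1.00). For KO over WT after LPS, the log2 difference was 0.23 for Bcl2, 0.048 for Bcl2l1, -0.050 for Mcl1, -0.11 for Bcl2a1b, -0.093 for Bcl2a1d, -0.17 for Bak1, 0.015 for Bid, 0.25 for Bcl2l11 and 0.023 for Pmaip1. Untreated it was -0.33 for Bcl2, -0.20 for Bcl2l1, -0.012 for Mcl1, -0.31 for Bcl2a1d, -0.034 for Bak1, -0.11 for Bid, 0.59 for Bcl2l11 and -0.24 for Pmaip1. With no filter on low counts the untreated difference of Bcl2l11 was called (0.57, adjusted p = 0.000592). Untreated KO library 2 had 129.7 CPM of Bcl2l11, against 41.1 to 57.7 in the other KO libraries. With the filter and each library left out in turn, this difference ran from 0.13 to 0.78, never called (adjusted p from 0.173 to 0.841). Groups of dCIS and WT did not overlap for Bcl2l1 (0.25 ± 0.13) and Bcl2a1d (-0.31 ± 0.21) after LPS, neither of them called, when 6.86% of all genes did not overlap, and for 0 members untreated (2.51%). The other dCIS over WT differences after LPS were 0.11 for Bcl2, 0.0087 for Mcl1, -0.076 for Bcl2a1b, -0.11 for Bax, 0.27 for Bak1, 0.035 for Bid and 0.084 for Bcl2l11. Untreated they were 0.00069 for Bcl2, 0.018 for Bcl2l1, 0.17 for Mcl1, -0.24 for Bcl2a1b, -0.086 for Bcl2a1d, 0.10 for Bax, 0.23 for Bak1, -0.045 for Bid and 0.16 for Bcl2l11.

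KO and dCIS were also set against each other, and in the untreated cells Bax and Pmaip1 were called lower in KO, 2 of 10 members when 21.3% of all genes were called and 9.25% were called lower. No member had groups that did not overlap (18.7% of all genes). Bax averaged 48.2 ± 5.54 CPM in KO and 64.9 ± 19.8 in dCIS, and its log2 difference was -0.43 ± 0.15 (SE; adjusted p = 0.0414). The groups overlapped, and dCIS library 3 had 92.7 CPM against 45.7 to 61.0 in the other dCIS libraries. Without it the difference was -0.21 (adjusted p = 0.355), and the call was also lost without dCIS library 1 or 4 or KO library 1, 2 or 3 (adjusted p from 0.0524 to 0.11). Pmaip1 averaged 7.15 ± 1.51 CPM in KO and 10.8 ± 1.60 in dCIS, with a log2 difference of -0.60 ± 0.17 (adjusted p = 0.0167), and KO library 1 with 9.10 CPM overlapped dCIS library 4 with 8.47. That call was lost without dCIS library 1 or 3 or KO library 3 or 4 (adjusted p from 0.0508 to 0.063), and in a fit of these groups alone neither gene was called. Without KO library 2, Mcl1 was called lower in KO as well (-0.33, adjusted p = 0.0346), and with no filter Bcl2l11 was called higher in KO (0.41, adjusted p = 0.0179). With the filter and each library left out in turn, the Bcl2l11 difference ran from -0.029 to 0.78. It was never called there (adjusted p from 0.0744 to 0.959). The untreated differences that were not called were -0.33 for Bcl2, -0.22 for Bcl2l1, -0.18 for Mcl1, -0.15 for Bcl2a1b, -0.22 for Bcl2a1d, -0.26 for Bak1, -0.067 for Bid and 0.43 for Bcl2l11. After LPS no member was called for KO over dCIS (2.18% of all genes), by edgeR or DESeq2, and 1 had an unadjusted p under 0.05 (20.2% of genes), Bak1, with 286 ± 14.1 CPM in KO and 388 ± 88.9 in dCIS and a log2 difference of -0.44 ± 0.15 (adjusted p = 0.112). The other differences after LPS were 0.13 for Bcl2, -0.20 for Bcl2l1, -0.059 for Mcl1, -0.029 for Bcl2a1b, 0.22 for Bcl2a1d, -0.17 for Bax, -0.020 for Bid, 0.17 for Bcl2l11 and -0.38 for Pmaip1. These comparisons share the KO or the dCIS libraries with those against WT.

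Differences of the LPS response between genotypes were tested directly. No member was called for the KO response minus the WT response (0.0203% of all genes called; 1 member, Bcl2, at an unadjusted p under 0.05, and 1.75% of genes) or for the dCIS response minus the WT response (0.00% called; 0 members at an unadjusted p under 0.05, and 7.85% of genes). DESeq2 called 0 members as well. The differences ran from -0.34 ± 0.48 for Bcl2l11 to 0.56 ± 0.26 for Bcl2 in KO, and from -0.22 ± 0.32 for Bcl2a1d to 0.23 ± 0.19 for Bcl2l1 in dCIS (SE). Between these lay, in KO, Bcl2l1 (0.25), Mcl1 (-0.039), Bcl2a1b (0.28), Bcl2a1d (0.22), Bax (0.045), Bak1 (-0.14), Bid (0.13) and Pmaip1 (0.26). In dCIS they were Bcl2 (0.10), Mcl1 (-0.16), Bcl2a1b (0.16), Bax (-0.22), Bak1 (0.039), Bid (0.080), Bcl2l11 (-0.072) and Pmaip1 (0.040). The SE of Bcl2l11 was 0.48 in both, so differences of that order were not detectable for it with these libraries. Larger differences could also go uncalled. Hdac9, with few reads in KO, had a KO response minus WT response of -1.89 ± 0.48 and was not called. The absence of a call therefore does not exclude sizeable differences of response in any member.

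**Figure D4:**
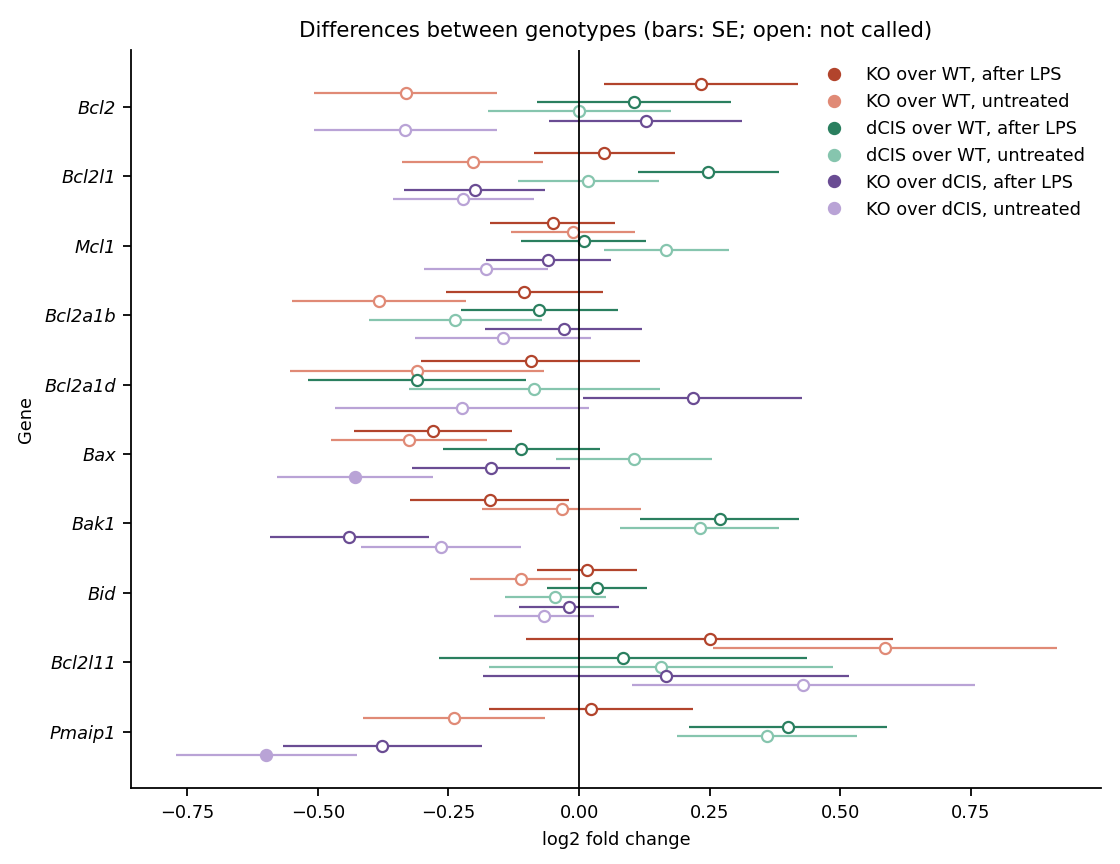
Log2 fold change of each member between genotypes (x axis) at each treatment, 6 comparisons per gene (y axis) from KO over WT, after LPS, at the top to KO over dCIS, untreated, at the bottom; bars are SE, and filled points reached an adjusted p of 0.05. The filled points are Bax (-0.43) and Pmaip1 (-0.60) for KO over dCIS, untreated.

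Further genes of the pathway were counted in full lists, chosen with earlier results of these data known. Of all tested genes, 30.9% were called higher and 30.7% lower in KO, 31.3% and 33.3% in dCIS, and 30.4% and 31.0% in WT. Of 16 other BCL2 family genes 11 were tested, and after LPS 3 were higher and 5 lower in KO, 4 and 4 in dCIS, and 3 and 4 in WT, with median log2 changes of -0.28, -0.08 and -0.24. The rises were led by Bcl2a1c and Bcl2a1a, and Bcl2a1c had a log2 change of 4.02 ± 0.24 in KO, 4.61 ± 0.25 in dCIS and 3.90 ± 0.24 in WT (SE; adjusted p = 7.51e-14, 7.91e-15 and 9.50e-14). Bnip3l, which encodes a mitophagy receptor, averaged 31.7, 31.9 and 31.5 CPM after LPS, against 61.9, 52.3 and 55.7 CPM untreated, in KO, dCIS and WT (log2 change -0.96, -0.71 and -0.82). With total counts the list had 2 genes higher and 7 lower in each genotype, and these 3 genes kept their direction and their call.

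All 12 genes of a list named caspase activation, downstream of the mitochondrion, were tested. The list also holds Aifm1, Endog, Dffa and Dffb, which do not activate caspases. Of the 12, 4 were higher and 6 lower in KO, 4 and 6 in dCIS, and 4 and 7 in WT. The median log2 change of the list was below 0 (-0.43, -0.66 and -0.72 in KO, dCIS and WT). Apaf1, the scaffold that cytochrome c assembles, averaged 235 CPM in KO, 173 in dCIS and 179 in WT after LPS, against 44.8, 35.6 and 33.5 CPM untreated. Its log2 change was 2.39 ± 0.12, 2.28 ± 0.12 and 2.42 ± 0.12 (SE; adjusted p = 1.35e-15, 3.64e-15 and 1.17e-15). With total counts 4 genes of the list were higher and 8 lower in each genotype, and Apaf1 stayed higher and called.

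Of 11 survival factors outside the family, 9 were higher and 1 lower in each genotype, with median log2 changes of 2.03 in KO, 1.78 in dCIS and 1.97 in WT against 0.02, -0.05 and 0.00 for all genes. Of all genes, 30.4 to 31.3% were called higher and 30.7 to 33.3% lower over the genotypes. As the list was picked with earlier results known, its counts describe only the genes picked. Cflar, which encodes the caspase-8 inhibitor cFLIP, averaged 1577 CPM in KO, 1380 in dCIS and 1263 in WT after LPS, against 149, 119.9 and 124 CPM untreated (log2 change 3.40, 3.53 and 3.35; adjusted p = 1.35e-17, 7.37e-18 and 1.72e-17). Traf1, an adaptor of TNF receptors, changed by 5.10, 5.14 and 4.95, and Tnfaip3, the ubiquitin-editing enzyme A20, by 3.70, 3.79 and 3.60, all called. With total counts 7 were higher in KO, 8 in dCIS and 7 in WT, with 1, 1 and 2 lower, and these 3 genes stayed higher.

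Of 18 regulators of the family 16 were tested, and 7 were higher in each genotype, with 6 lower in KO, 7 in dCIS and 6 in WT. Foxo3, a transcription factor known to drive Bcl2l11, averaged 13.6 CPM in KO, 13.1 in dCIS and 10.8 in WT after LPS, against 70.0, 49.5 and 49.3 CPM untreated (log2 change -2.36 ± 0.17, -1.92 ± 0.17 and -2.19 ± 0.18 SE; adjusted p = 4.96e-12, 2.58e-10 and 2.69e-11). Ywhaz, a 14-3-3 protein that holds phosphorylated BAD, changed by 1.68, 1.33 and 1.57, and Hif1a, the oxygen-regulated factor, by 1.76, 1.83 and 1.74, all called. With total counts the list had 3 higher and 12 lower in KO, 4 and 11 in dCIS, and 4 and 12 in WT, and these 3 genes kept their direction.

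**Figure D5:**
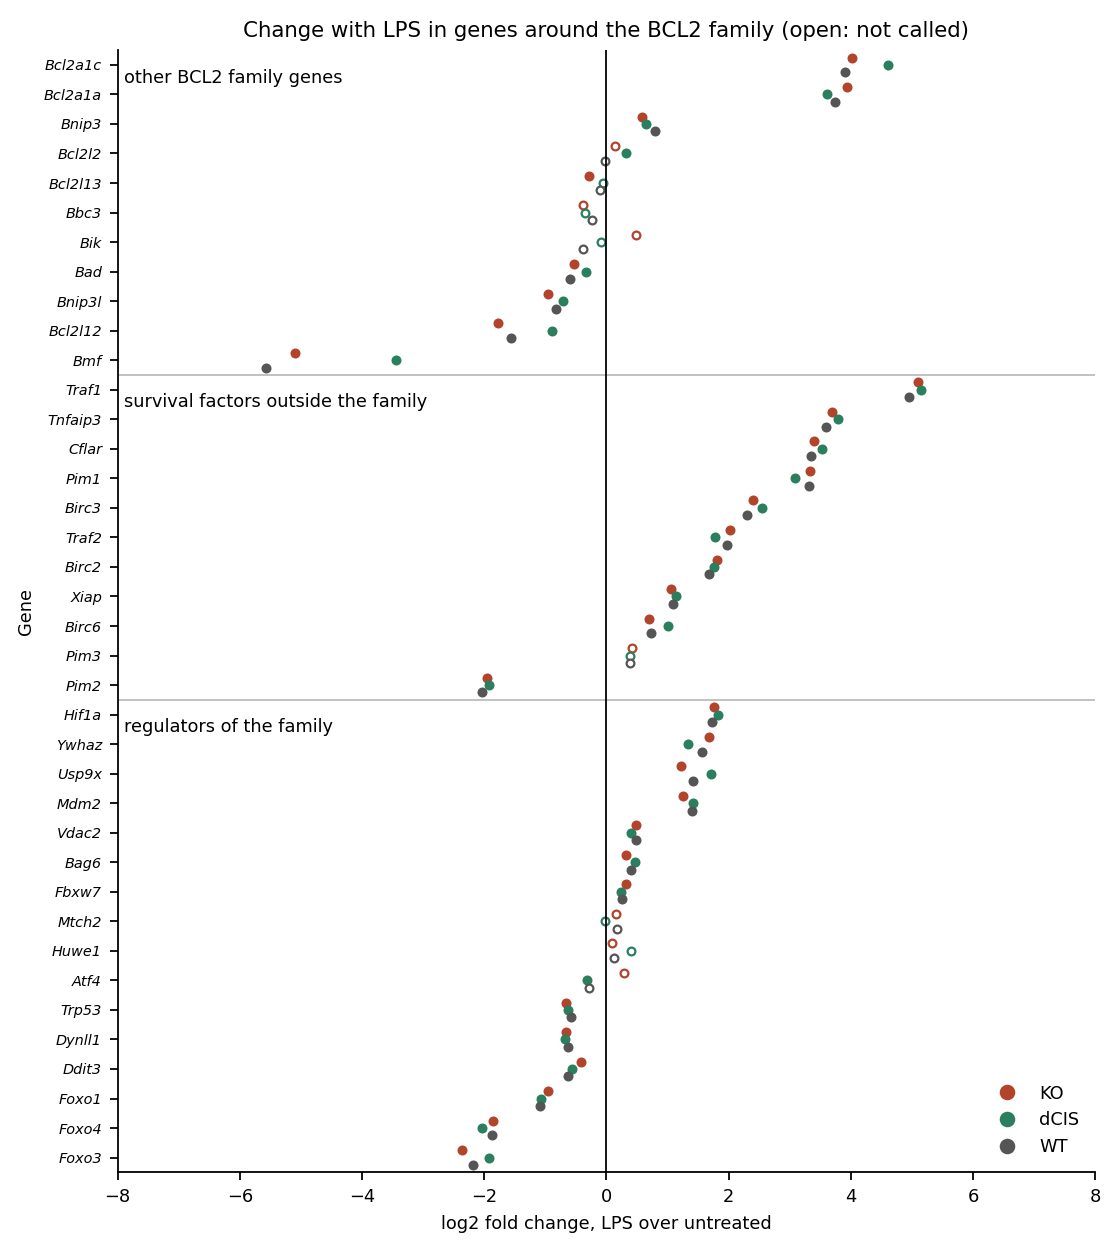
Log2 fold change with LPS (x axis) of the tested genes of 3 of the pathway lists, other family genes, survival factors outside the family and regulators (y axis, ordered within a list by the WT value), in KO, dCIS and WT from top to bottom within each gene; open points did not reach an adjusted p of 0.05. Survival factors outside the family lie mostly right of 0, with medians of 2.03, 1.78 and 1.97.

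Between genotypes a few genes of these lists were called. Unlike the calls of the members, these were not refitted with each library left out in turn. For KO over WT in untreated cells, 1 other family gene, 1 gene of caspase activation, 1 survival factor and 4 regulators were called (7.31% of all genes). Atf4, a transcription factor of the stress response, averaged 163 CPM in KO and 299 in WT (log2 difference -0.88 ± 0.14 SE, adjusted p = 0.000885). Usp9x and Huwe1, which encode the deubiquitinase and a ubiquitin ligase of MCL1, were higher in KO, by 0.95 ± 0.20 and 0.76 ± 0.18 (adjusted p = 0.0115 and 0.0207). Birc6, a large inhibitor of apoptosis, was higher by 0.65 and Apaf1 by 0.42 (adjusted p = 0.0116 and 0.0309), while Bik was lower in KO at 0.136 CPM, against 0.603 CPM in WT (adjusted p = 0.0434). After LPS, Birc6, Huwe1 and Usp9x were higher in KO than in WT, by 0.60, 0.73 and 0.75 (adjusted p = 0.0227, 0.0341 and 0.0405), when 2.74% of all genes were called. For dCIS over WT no gene of the 4 lists was called at either treatment by edgeR (0.258% of all genes after LPS and 0.0542% untreated). After LPS, 2 other family genes, 0 of caspase activation, 0 survival factors and 1 regulator had an unadjusted p under 0.05 (13.1% of all genes). Untreated, these counts were 0, 0, 1 and 0 (3.61% of all genes).

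For KO over dCIS in untreated cells, 1 other family gene, 2 genes of caspase activation, 3 survival factors and 8 regulators were called (21.3% of all genes). Usp9x was higher in KO by 1.15 ± 0.20 and Birc6 by 0.78 ± 0.14 (SE; adjusted p = 0.00118 and 0.00131), and Birc3 and Xiap, further inhibitors of apoptosis, by 0.46 and 0.48. Atf4 and Ddit3, the stress factor CHOP, were lower in KO by -0.73 and -0.66 (adjusted p = 0.002 and 0.00212), as were the BH3-only gene Bad, by -0.40 (0.0245), and Endog by -0.84 (0.0476), while Apaf1 was higher by 0.33 (0.0408). After LPS, Bad (-0.60), Bcl2l12 (-1.20) and Ddit3 (-0.51) were lower and Apaf1 (0.44) and Hif1a (0.49) higher in KO than in dCIS, with adjusted p from 0.0155 to 0.0491. In this comparison 2.18% of all genes were called.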

How the data were processed

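Per the labels' protocols, poly(A) RNA was bound to oligo-dT beads from an input of 200 ng, and the paired-end reads were 60 nucleotides long. The deposited values are raw counts, one per gene and library (24), from the authors. STAR and edgeR and the build mm39 are named in the submitters' processing notes; versions, annotation release, strand setting and counting program are not given by the sources used here, so reads of genes that overlap on opposite strands may not be separated.

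Symbols matched 91.2% of gene IDs. Genes were filtered with edgeR's group-aware filter (minimum count 10, minimum total 15), scaled by TMM and fitted in 1 quasi-likelihood model with a mean per group over all 24 libraries (R 4.3.3, edgeR 4.0.16). The comparisons, 11 in all, are LPS against untreated in each genotype, the genotype pairs at each treatment, and the LPS response of KO or dCIS minus that of WT. Tests are 2-sided. No 2 libraries in the same group were alike to within sampling noise (chi-square per degree of freedom 9.30 to 84.2 over 36 pairs). Untreated KO library 2 gave 44.1, 58.1 and 56.0 against KO libraries 1, 3 and 4, which gave 12.0 to 23.7 among themselves. Promoters were read with Biopython 1.88.

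The labels number the libraries 1 to 4 in every group. Deviations from group means of same-numbered libraries correlated above 0.1 in every pair between LPS and untreated of KO (0.199 to 0.345) and of WT (0.173 to 0.198) and between untreated KO and dCIS (0.161 to 0.416), and not in every pair of the other comparisons. Between LPS and untreated of dCIS they ran from 0.0471 to 0.415. In KO, dCIS and WT alike, each LPS library correlated best with the untreated library of its own number. Any pairing is thus taken from the data and not from the labels, and the main fit held none.

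The members and lists were chosen with earlier results of these data known. All 10 members are named in every comparison, up to 3 called genes per list and comparison by smallest p, the 3 genes most like each member, and Hdac9; some genes that this rule names are not reported here. Alternatives were RLE size factors, no filter, a filter of 1 CPM in 4 libraries, DESeq2 1.42.0, the replicate block over all groups or within genotypes, the compared groups alone, summed Bcl2a1 counts, each library left out in turn, and dCIS LPS libraries 3 and 4 left out. Total counts without scaling and the fit without untreated libraries 2 of KO and dCIS were chosen after seeing the data.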

Additional observations from a re-analysis of the deposited data

Results flagged for a closer look

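Among the 60 sets of 4 libraries (10 members in 6 groups), 4 held a library far from the other 3 by Dixon's test, where chance alone gives about 5% of sets. Mcl1 had 900.2 CPM in KO LPS library 2, against 684.8 to 700.2 CPM in the other libraries of that group. Bax had 88.83 CPM in WT LPS library 3, against 70.5 to 71.77 CPM in the others. Bak1 had 313.1 CPM in WT LPS library 1, against 323.5 to 325.3 CPM. Pmaip1 had 6.678 CPM in WT LPS library 2, against 4.689 to 4.986 CPM.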

How the results depend on the processing

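Of 2080 refitted values of single members, 2022 kept their side of the threshold and their direction, 29 lost and 22 gained a call, and 7 turned with a call on one side; 109 of the 2022 changed sign where neither value was called. All 7 came from total counts without scaling: Mcl1 at -0.14 in KO, -0.20 in dCIS and -0.0876 in WT, Bax at -0.45, -0.63 and -0.48, and Bid at -0.0239 in WT, for LPS against untreated. The number of members called for KO against WT, 0 in both treatments, was 1 with the compared groups alone, 1 untreated with no filter, and 0 to 0 over the libraries left out in turn. For KO against dCIS, untreated, the 2 calls became 0 with the compared groups alone, 1 with RLE, 3 with no filter (Bcl2l11 added) and 3 without untreated libraries 2 of KO and dCIS (Mcl1 added), and ran from 0 to 2 over the libraries left out; after LPS the count of 0 was 1 with no filter and ran from 0 to 1, with Bak1 called (-0.55, adjusted p = 0.0249) without dCIS LPS library 2. The causes were not tested. Over all genes, KO against WT gave 405 calls after LPS and 1079 untreated, against 1995 and 2351 with the compared groups alone and 1069 and 2097 with DESeq2; dCIS against WT gave 38 and 8, against 277 and 80 with no filter and 218 and 19 with DESeq2; and KO against dCIS gave 322 and 3147, against 82 and 1317 with the compared groups alone. The LPS counts ran from 7 to 9 in KO and stayed at 9 in dCIS and WT over the libraries left out. With the replicate block over all groups they were 9 in KO, 9 in dCIS and 10 in WT; beyond Bax in WT and Pmaip1 in KO, the block changed no call of a member. Read counts per library fell to 48 for Pmaip1, 82 for Bcl2a1d, 117 for Bcl2l11, 126 for Bcl2a1b and 128 for Bcl2, which limits the precision of their levels.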

Other observations

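By the correlation of log2 CPM (pseudocount 0.5) over the 24 libraries, which share the LPS contrast, genes most like each member were as follows. For Bcl2a1b they were Ehd1 (Pearson r = 0.997), Dbnl (0.997) and Bcl2a1d (0.997), and for Bcl2a1d they were Bcl2a1b (0.997), Ccl4 (0.997) and Bcl2a1a (0.996). Mcl1 was followed most closely by Sat1 (0.972), Grn (0.963) and Csrp1 (0.955), Bcl2l1 by Lmo4 (0.962), Rrp7a (0.961) and Arf6 (0.961), and Bcl2 by Tbc1d7 (0.838), Rtn4ip1 (0.803) and Ints11 (0.788). Bak1 came nearest to Rrp7a (0.975), Gtf2f1 (0.973) and Arhgdia (0.972), and Bax to Swi5 (0.948), Rbm8a (0.947) and Psmc5 (0.946). Bid came nearest to Etf1 (0.984), Wdr43 (0.982) and Sh3bp4 (0.981), Bcl2l11 to Pnpla7 (0.954), Tcp11l2 (0.952) and Hsd17b4 (0.952), and among the genes near Pmaip1 were Birc5 (0.895) and Mis18a (0.892).

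Bmf, a BH3-only gene that was chosen after its values were seen, had 6 reads in KO, 14 in dCIS and 3 in WT summed over the 4 LPS libraries, against 430, 266 and 269 over the untreated ones. The ratio of LPS over untreated levels was 0.0262 in KO (95% interval 0.00955 to 0.0574), 0.0891 in dCIS (0.0481 to 0.152) and 0.0188 in WT (0.00385 to 0.0555), and these exact intervals cover counting error only. The difference of the dCIS response from that of WT in Bmf was 2.13 ± 1.32 on the log2 scale (SE; adjusted p = 0.709 by edgeR).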
